A study of Mus musculus with 6 samples.

Results

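Foxp3, Ikzf2, Ikzf4 and Lrrc32 are 4 genes of the regulatory T cell (Treg) program, and they are described here in the Treg and Cycling_Treg clusters of the study's annotation and in its 10 other clusters, by treatment. They were chosen by name as 4 of the 34187 gene features of the matrices (Foxp3, ENSMUSG00000039521; Ikzf2, ENSMUSG00000025997; Ikzf4, ENSMUSG00000002578; Lrrc32, ENSMUSG00000090958). The 2 Treg clusters held 159 of the 2084 annotated cells, 127 in Treg and 32 in Cycling_Treg. C57BL/6 mice of both sexes carried subcutaneous 6694c2vTRP1 tumors, a line of pancreatic ductal adenocarcinoma cells. They received 2 intraperitoneal doses from day 8 and their tumors were taken on day 14. The groups were PBS, mono-IL10 (a monomeric human IL-10, 26 μg per mouse) and IL10/2-Trikine (the same cytokine joined to a module that recruits the IL-2 receptor beta chain, 30.6 μg per mouse). CD45+ cells had been isolated with beads, each mouse had its own hashtag antibody, and the cells of a treatment were pooled into 1 library, so treatment and library cannot be told apart. The 2 treated groups share the PBS mice as controls, their doses differ in mass, and an age is stated for mice with the parent tumor line but not for those of this experiment.

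Tregs are CD4 T cells that restrain other lymphocytes, and in tumors they are known for holding back antitumor responses. Foxp3 is the transcription factor that defines the lineage and keeps it stable. Ikzf2 (Helios) and Ikzf4 (Eos) are zinc finger factors of the Ikaros family, of which Eos is known as a partner of Foxp3 in gene repression, while Helios is also made by other lymphocytes. Lrrc32 encodes GARP, the surface protein that anchors latent TGF-beta on activated Tregs, and it is also made by endothelial cells and platelets. IL-2 sustains Foxp3 through the high-affinity IL-2 receptor, whose alpha chain is Il2ra.

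The annotated cells numbered 516 after PBS, 843 after mono-IL10 and 725 after IL10/2-Trikine, and each was found in its library. No barcode was annotated in more than 1 library. Whether an annotated barcode recurred among the unannotated ones of another library was not checked. A mouse was assigned to 348, 635 and 400 of them, which gave 5 mice per group with 124258 to 995020 summed UMIs (unique molecular identifiers, 1 per captured transcript) each. A number of 5 mice is stated for the treated groups, and for PBS it rests on the 5 hashtags found in its library. The Treg clusters held 6 to 17 cells of each PBS mouse, 4 to 16 of each mono-IL10 mouse and 2 to 13 of each IL10/2-Trikine mouse. Levels are given as CPM, the UMIs of a gene scaled to the total UMIs of the cells named. Values are compared for 1 gene at a time, since CPM were not corrected for length.

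Among the annotated cells, Foxp3 and Lrrc32 transcripts lay almost entirely in the Treg clusters, while Ikzf4 and Ikzf2 were spread further. The clusters had been made from these same cells, so the contrast of clusters is a description with no test. Barcodes outside the annotated cells, described at the end, held many more UMIs of both genes, 3738 of Foxp3 and 6462 of Lrrc32. Of 269 Foxp3 UMIs in annotated cells, 248 (92.2%) were in the Treg clusters, which held 6.84% of all UMIs. The same share was 92.7% for Lrrc32 (51 of 55 UMIs), 43.4% for Ikzf4 (43 of 99) and 27.5% for Ikzf2 (1244 of 4522). Of the defining markers of Tregs, Il2ra had 1943 CPM in the Treg clusters against 80.1 CPM elsewhere and Ctla4, an inhibitory receptor of Tregs, had 1758 against 281 CPM. Trdc, a gamma-delta T cell marker, was at 0 in both Treg clusters. The CD8 genes Cd8a and Cd8b1 summed to 17.9 CPM in Treg and 9.56 in Cycling_Treg against 337 elsewhere, with Cd8a at 0 in Cycling_Treg. NK markers summed to 376 and 52.6 CPM against 3675 elsewhere, and all 5 of them were found in the IL10/2-Trikine Treg cells. Macrophage markers summed to 424 and 90.8 CPM against 137 elsewhere. The source of these transcripts was not tested.

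**Figure D1:**
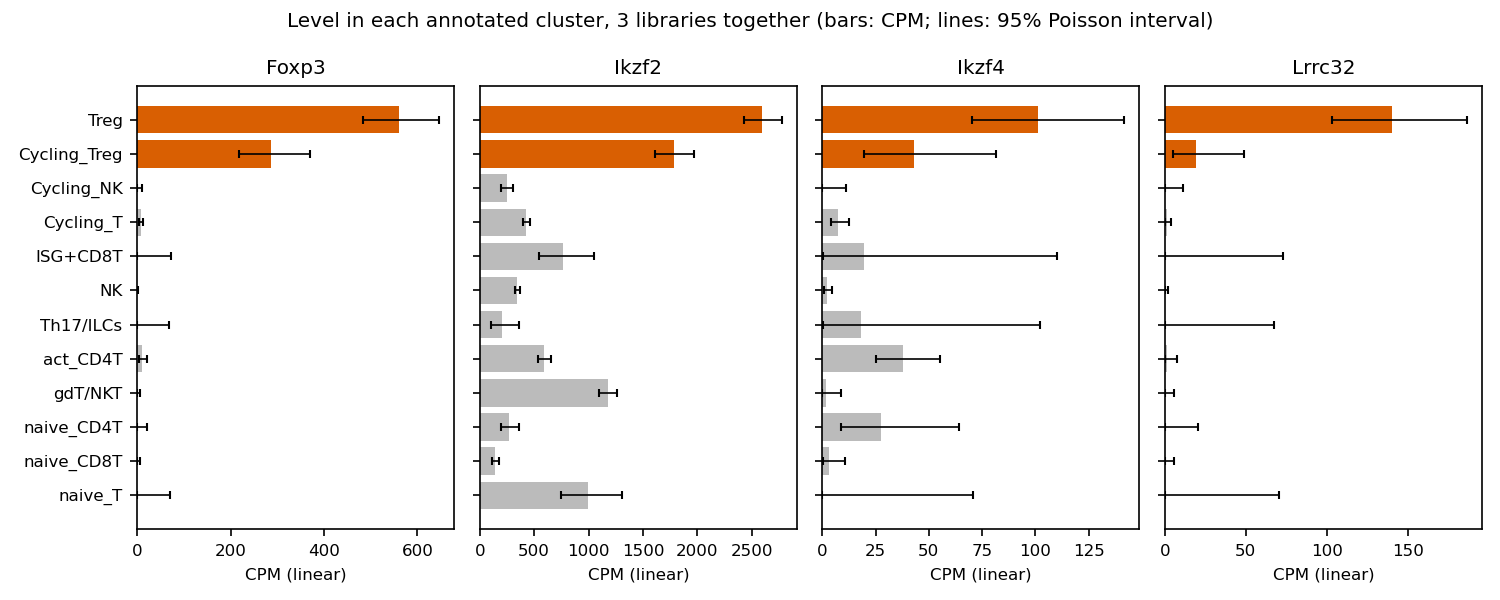
CPM of each gene (horizontal axes, linear, 1 scale per gene) in the 12 annotated clusters over the 3 libraries together, with 95% Poisson intervals as lines. Orange bars are the Treg and Cycling_Treg clusters. Foxp3 and Lrrc32 are nearly empty outside them, whereas Ikzf2 reaches 1176 CPM in gdT/NKT and Ikzf4 38.0 CPM in act_CD4T.

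Foxp3 reached 561 CPM in Treg (95% Poisson interval 484 to 647) and 287 CPM in Cycling_Treg (219 to 369). These intervals cover counting error only, as do all intervals and limits given here. Over mice with at least 3 cells of the cluster, the Treg level was 559 ± 286 CPM (SD, n = 13) and the Cycling_Treg level was 183 ± 191 CPM (SD, n = 4), a gap wider than either SD. These 4 mice were from PBS (2) and IL10/2-Trikine (2), while 5 of the 13 were from mono-IL10. Over the cells of each treatment Foxp3 was at 442, 712 and 447 CPM in Treg for PBS, mono-IL10 and IL10/2-Trikine. It was at 286, 302 and 265 CPM in Cycling_Treg, so its CPM was lower there within each. The Poisson intervals of the 2 clusters overlapped in PBS and IL10/2-Trikine. Foxp3 UMIs per cell were higher in Cycling_Treg in PBS (2.08 against 1.12) and mono-IL10 (3.5 against 2), and lower in IL10/2-Trikine (0.923 against 1.125). Foxp3 was counted in 63.8% of Treg cells (81 of 127) and 53.1% of Cycling_Treg cells (17 of 32), at medians of 2421 and 4104 UMIs per cell. In NK cells it was counted in 0 of 795 cells at a median of 3034 UMIs, which allows a share of cells with a UMI of up to 0.377% and sets no limit on cells that make the transcript. It was also at 0 in gdT/NKT, naive_CD8T, naive_CD4T, Cycling_NK, ISG+CD8T, Th17/ILCs and naive_T. As a further background, 0.483% of 31677 unannotated barcodes with macrophage markers and no T cell marker carried a Foxp3 UMI.

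The 6 Foxp3-positive cells outside the Treg clusters were 3 Cycling_T and 3 act_CD4T cells. One mono-IL10 Cycling_T cell held 11 Foxp3 UMIs with 20 of Il2ra, 12 of Ikzf2, 2 of Lrrc32 and 2 of Cd4, and none of Cd8a. One PBS act_CD4T cell held 5 Foxp3 UMIs with 16 of Il2ra, 14 of Ikzf2 and 1 of Lrrc32. These 2 cells thus carried several members together, under the label of another cluster. A further Cycling_T cell, from mono-IL10, had 1 Foxp3 UMI beside 10 of Cd8a.

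Lrrc32 was high in Treg and low in Cycling_Treg. It reached 140 CPM in Treg (103 to 186) and 19.1 CPM in Cycling_Treg (5.21 to 49.0), and per mouse the means were 116 ± 73.7 (SD, n = 13) and 32.7 ± 39.9 CPM (SD, n = 4), a gap wider than either SD, with no mono-IL10 mouse among the 4. Over the cells of each treatment Lrrc32 was at 116, 185 and 82.9 CPM in Treg for PBS, mono-IL10 and IL10/2-Trikine, and at 10.6, 28.8 and 22.1 CPM in Cycling_Treg, which rests on 1 or 2 UMIs per treatment. Lrrc32 was counted in 30.7% of Treg cells and 12.5% of Cycling_Treg cells, although the latter had more UMIs per cell. Outside these clusters it had 4 UMIs, 2 of them in the Cycling_T cell with 11 Foxp3 UMIs. Endothelial markers, which could bring Lrrc32 from another source, summed to 50.7 CPM in Treg, 81.3 in Cycling_Treg and 82.7 in the other clusters, with Kdr at 0 in both Treg clusters. Platelet markers, of which only Pf4 was found there, summed to 191 CPM in Treg and 52.6 in Cycling_Treg against 60.3 elsewhere, and Itga2b and Gp9 were at 0 in both. The part of these sources in the Lrrc32 values was not tested.

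Ikzf4 had 99 UMIs in all and was also counted outside the Treg clusters, where act_CD4T held 27 of its 56 UMIs. It had 101 CPM in Treg (70.2 to 142), 43.0 CPM in Cycling_Treg (19.7 to 81.7), 38.0 CPM in act_CD4T (25.04 to 55.3) and 27.5 CPM in naive_CD4T (8.93 to 64.2). The 27 UMIs of act_CD4T were from PBS (9) and mono-IL10 (18), with 0 in the 28 IL10/2-Trikine cells, and the 5 of naive_CD4T lay in 4 cells. ISG+CD8T and Th17/ILCs had 1 UMI each. Ikzf4 had 2.00 CPM in NK, 1.58 CPM in gdT/NKT and 3.02 CPM in naive_CD8T. Over mice no neighbors in this order differed beyond their SD, and the naive_CD4T level came from 1 of 7 mice.

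Ikzf2 was detected in nearly every Treg and in many other lymphocytes. It had 2598 CPM in Treg (2428 to 2777) and 1783 CPM in Cycling_Treg (1607 to 1974), and was counted in 98.1% of the 159 cells. Per mouse, however, the 2 clusters lay within their spread, at 2474 ± 607 (SD, n = 13) and 2300 ± 1080 CPM (SD, n = 4), and over the IL10/2-Trikine cells the order was the other way, with 2088 CPM in Treg and 2143 in Cycling_Treg. The next level by mouse was that of gdT/NKT, with 1201 ± 414 CPM (SD, n = 14), below Cycling_Treg (2300 ± 1080, n = 4) by more than either SD. In act_CD4T it was 876 ± 694 CPM (SD, n = 13), in Cycling_T 417 ± 174 (n = 15) and in NK 339 ± 112 (n = 15), and these neighbors lay within their spread. In the small naive_T cluster it had 3575 CPM in 5 PBS cells, 1 of which held 25 of their 35 UMIs, and 367 CPM in 19 mono-IL10 cells. Unlike Foxp3, it was counted in 46.7% of NK cells.

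Within the Treg clusters, Foxp3-positive and Foxp3-negative cells both carried Ikzf2. It was counted in 97 of 98 cells with Foxp3 and in 59 of 61 cells without it, at medians of 2634 and 2454 UMIs. Il2ra was counted in 95.9% and 91.8% of them, and Ctla4 in 92.9% and 88.5%. Ikzf4 was counted in 26.5% of the cells with Foxp3 and 11.5% of those without, and Lrrc32 in 28.6% and 24.6%. All 4 members were found together in 10 cells, each of them in Treg, and 1 of the 159 cells had none. A cell without a Foxp3 UMI at this depth may still contain the transcript.

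Genes with the most similar pattern were ranked by Pearson's r over the 12 clusters on log2(CPM + 10), among 8894 genes with at least 50 UMIs, as a description. Foxp3 was followed by Nckap5 (r = 0.994), Ccr1 (0.992), Tnfrsf8 (0.988), Rln3 (0.987) and Izumo1r (0.987), the last of which encodes folate receptor 4 of Tregs. Izumo1r, for example, had 292 CPM in Treg, 158 CPM in Cycling_Treg and a median of 0 in the others. Lrrc32 was followed by Frmd5 (0.980), Slc25a51 (0.966), Rln3 (0.938), Izumo1r (0.934) and Foxp3 itself (0.933). Ikzf4 was closest to Slc15a3 (0.953), Egln3 (0.943), Got1 (0.908), Tnfrsf4 (0.906), the costimulatory receptor OX40, and Tnfrsf13b (0.905). Ikzf2 had weaker partners, with Cd80 (0.847), Itgav (0.830), Coq8a (0.813), Ppm1b (0.789) and Hemk1 (0.786). The clusters share libraries, and the high values of most of these genes lie in the Treg clusters.

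The comparison of treatments inside the Treg clusters asks whether the program differed relative to all UMIs of these cells. Neither Foxp3 nor Ikzf2, the only members past the filter on low counts there, passed the test. Foxp3 was nevertheless higher in each mono-IL10 mouse than in any PBS mouse. The number of other tested genes that separated these mice likewise was not counted. Foxp3 had 383, 426, 323, 428 and 330.0 CPM in the 5 PBS mice. In the 5 mono-IL10 mice it had 591, 538, 624, 738 and 484 CPM. The 3 IL10/2-Trikine mice with at least 3 such cells had 134, 248.5 and 677 CPM, and overlapped with both groups. The other 2 mice of that group, left out of the fit with 2 such cells each, had 970 and 993 CPM, and the mean over all 5 was 604.5 ± 400 CPM (SD). The means were 378 ± 50.4 (SD, n = 5), 595 ± 96.2 (SD, n = 5) and 353 ± 287 CPM (SD, n = 3). In the edgeR quasi-likelihood fit the log2 fold change of mono-IL10 against PBS was 0.66 ± 0.30 (SE), with an unadjusted p of 0.0366 and an adjusted p of 0.698. That comparison had 899 genes tested and 0% called, with 62 genes at an unadjusted p under 0.05, and DESeq2 also called 0. IL10/2-Trikine against mono-IL10 gave -0.82 ± 0.38 (adjusted p 0.335, 0% of genes called, 125 at an unadjusted p under 0.05, and 8 called by DESeq2). This value rested on few mice, since it was -0.33 without IL10/2-Trikine replicate 1, -1.65 without replicate 5 and -0.46 when the mice with 2 cells were let in. IL10/2-Trikine against PBS gave -0.16 ± 0.40 (adjusted p 0.962, 0.334% of genes called), and it turned to 0.33 without IL10/2-Trikine replicate 1, to 0.008 without replicate 2 and to 0.18 when the mice with 2 cells were let in.

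**Figure D2:**
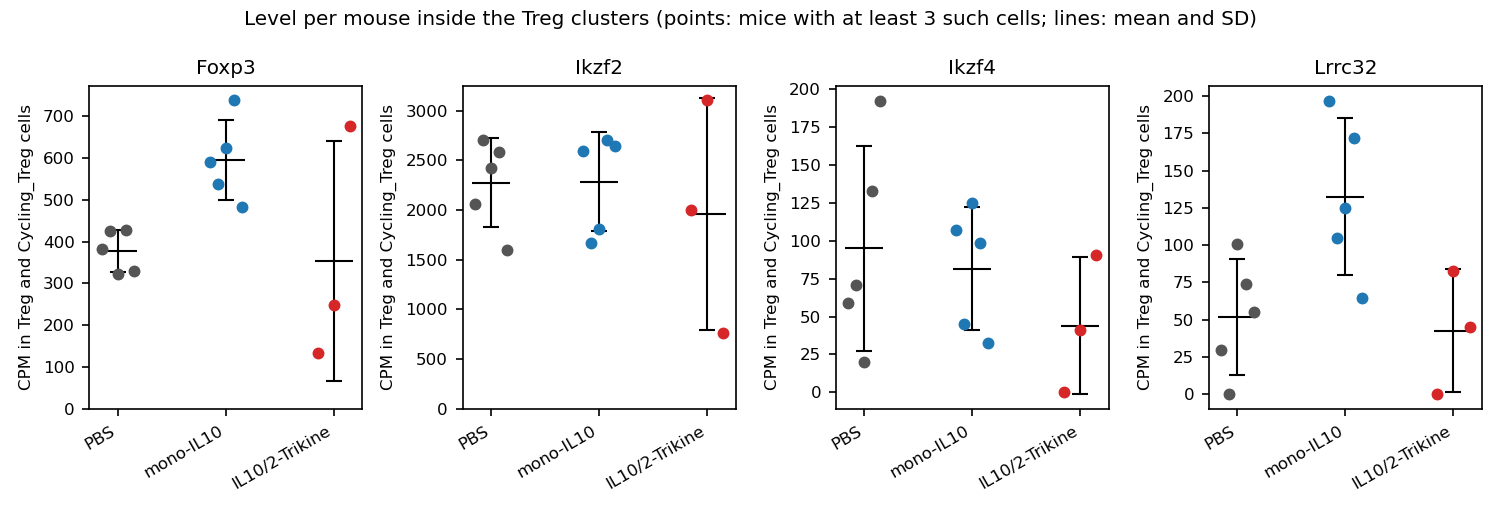
CPM of each gene in the Treg and Cycling_Treg cells of each mouse (vertical axes, linear, 1 scale per gene), for mice with at least 3 such cells, with the mean and SD as lines. The 5 mono-IL10 mice lie at 484 to 738 Foxp3 CPM, above the PBS mice at 323 to 428, while the other genes overlap between the groups.

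The share of Treg-cluster cells with a Foxp3 UMI was 75.9% in mono-IL10 (44 of 58), 56.3% in PBS (36 of 64) and 48.6% in IL10/2-Trikine (18 of 37), at medians of 2526, 2552 and 2519 UMIs per cell. Every cell was also thinned to 1500 UMIs in a single random draw. The shares were then 60.3% (95% exact binomial interval 46.6 to 72.9), 43.8% (31.4 to 56.7) and 35.1% (20.2 to 52.5), and the intervals overlapped. The place of IL10/2-Trikine under PBS rested on its replicate 1, without which the share was 58.3% (14 of 24), and 50% after thinning (12 of 24), a comparison added after the data had been seen. Over mice, those with 2 cells included, the share was 77% ± 5.20, 56.7% ± 12.98 and 67.0% ± 33.0 (SD, n = 5 each). Cycling_Treg, in which Foxp3 was lower in CPM, made up 13 of the 64 PBS, 6 of the 58 mono-IL10 and 13 of the 37 IL10/2-Trikine cells. In Treg cells alone, among those with a mouse assigned, Foxp3 was at 730.5 CPM in mono-IL10, 442 in PBS and 457 in IL10/2-Trikine. Macrophage markers in the Treg clusters summed to 147 to 781 CPM in single PBS mice. Their range was 0 to 355 CPM for mono-IL10 and 316 to 331 for IL10/2-Trikine. All 5 of these markers were found in PBS and IL10/2-Trikine and 3 in mono-IL10, and their part in the Foxp3 values was not tested.

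Lrrc32 and Ikzf4 were too sparse in the Treg clusters to pass the filter on low counts. Lrrc32 had 29.5, 0, 101, 73.8 and 55.0 CPM in the PBS mice and 197, 105, 125, 172 and 64.5 CPM in the mono-IL10 mice. The 3 IL10/2-Trikine mice in the fit had 0, 82.8 and 45.2 CPM, and the 2 left out of it, with 2 cells each, had 0 and 198.7 CPM, so that the group spanned the range of both others. The mono-IL10 and PBS groups thus overlapped, with 4 of the 5 mono-IL10 mice above every PBS mouse. Without the filter the log2 fold change of mono-IL10 against PBS was 1.08 ± 0.55 (adjusted p 0.695), and that of IL10/2-Trikine against mono-IL10 was -1.97 ± 0.81 (adjusted p 0.794). Ikzf4 lay at 95.1 ± 67.8 CPM in PBS, 81.6 ± 40.6 in mono-IL10 (SD, n = 5 each) and 43.9 ± 45.2 in IL10/2-Trikine (SD, n = 3), and its groups overlapped. The 2 IL10/2-Trikine mice left out had 242.4 and 0 CPM, and with them the mean was 74.8 ± 101 CPM (SD, n = 5). Its unfiltered log2 fold changes were -1.495 ± 0.86 for IL10/2-Trikine against PBS and -0.34 ± 0.57 for mono-IL10 against PBS.

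Ikzf2 inside the Treg clusters was at 2272 ± 448 CPM in PBS and 2286 ± 501 in mono-IL10 (SD, n = 5 each), and at 1959 ± 1170 in IL10/2-Trikine (SD, n = 3). The log2 fold change of mono-IL10 against PBS was 0.03 ± 0.25 (adjusted p 0.996), and that of IL10/2-Trikine against PBS was -0.17 ± 0.30 (adjusted p 0.909). The latter turned to 0.20 without IL10/2-Trikine replicate 5, which had 768 CPM in 6 cells.

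Over all annotated T and NK cells of a mouse, Ikzf2 CPM fell in both treated groups. These sums ask how much of the program the annotated lymphocytes carried together. In such sums fewer cells of a type and less RNA per cell cannot be told apart. The PBS mice had 764 to 969 CPM with a median of 901. The mono-IL10 mice had 447 to 561 with a median of 525.6, and the IL10/2-Trikine mice 435 to 712 with a median of 576. Every treated mouse was below every PBS mouse. How many other tested genes separated these groups likewise was not counted. The means were 896 ± 80.9, 510 ± 44.0 and 569 ± 103 CPM (SD, n = 5 each). Ikzf2 fell by 0.75 ± 0.12 on the log2 scale in mono-IL10 against PBS (adjusted p 0.000548, edgeR), where 1.11% of 4595 genes were called. It fell by 0.625 ± 0.119 in IL10/2-Trikine against PBS (adjusted p 0.00161), where 9.42% were called. Between the treated groups it differed by 0.125 ± 0.118 on the log2 scale (adjusted p 0.582), where 8.86% were called. Ikzf2 was thus 1 of the 2 members that could be tested in these sums, and the only one called. The sums hold annotated cells only. In unannotated barcodes with T cell markers, described at the end, IL10/2-Trikine had the highest Ikzf2 level. It was at 208 CPM after PBS, 169 after mono-IL10 and 244 after IL10/2-Trikine, in single libraries with no test.

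**Figure D3:**
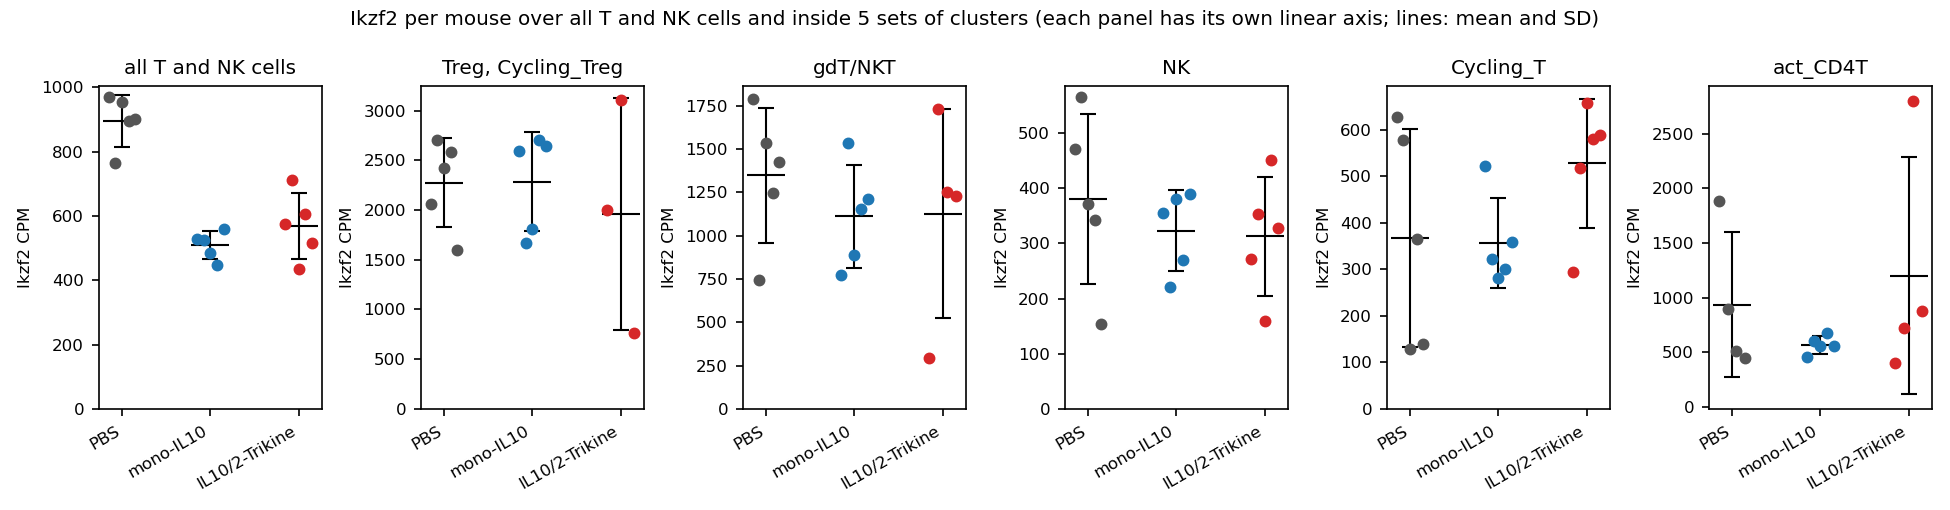
Ikzf2 CPM of each mouse (vertical axes, linear, 1 scale per panel) over all T and NK cells and in the Treg, gdT/NKT, NK, Cycling_T and act_CD4T clusters taken alone, with the mean and SD as lines. Over all cells the PBS mice, at 764 to 969, lie above all treated mice, whereas within each of the clusters shown the groups overlap.

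Ikzf2, the only member past the filter on low counts there, also fell in the cells outside the Treg clusters. It passed in none of the clusters tested alone, which were NK, gdT/NKT, Cycling_T and act_CD4T. In that order, these fits called 16, 0, 24 and 2 genes of any kind in mono-IL10 against PBS. They called 67, 7, 39 and 2 in IL10/2-Trikine against PBS. The lack of a call there thus does not show that Ikzf2 was unchanged within a cluster. In the other annotated cells Ikzf2 was at 644 ± 77.2 CPM after PBS, 384 ± 32.8 after mono-IL10 and 446 ± 120 after IL10/2-Trikine (SD, n = 5 each). It fell by 0.69 ± 0.15 on the log2 scale in mono-IL10 (adjusted p 0.0153, 1.29% of 4407 genes called) and by 0.50 ± 0.15 in IL10/2-Trikine (adjusted p 0.0361, 10.1% called), each against PBS. IL10/2-Trikine against mono-IL10 gave 0.19 ± 0.15 (adjusted p 0.479, 9.28% called). The share of these cells with an Ikzf2 UMI was 48.5% ± 5.21 after PBS, 49.3% ± 4.97 after mono-IL10 and 43.2% ± 9.82 after IL10/2-Trikine (SD, n = 5 each). The IL10/2-Trikine call was lost without IL10/2-Trikine replicate 1 (adjusted p 0.102) or 3 (0.0900), and without PBS replicate 1 (0.0917), 2 (0.0633) or 5 (0.0680). The log2 fold change stayed between -0.588 and -0.365 with any 1 mouse left out.

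Taken alone, NK cells had 381 ± 154, 323 ± 74.2 and 312 ± 107 CPM of Ikzf2 in PBS, mono-IL10 and IL10/2-Trikine (SD, n = 5 each). The gdT/NKT cluster had 1348 ± 390 and 1112 ± 299 CPM in PBS and mono-IL10 (SD, n = 5 each) and 1127 ± 603 in IL10/2-Trikine (SD, n = 4). Their log2 fold changes against PBS were -0.26 ± 0.23 and -0.27 ± 0.24 in NK and -0.29 ± 0.28 and -0.16 ± 0.32 in gdT/NKT, for mono-IL10 and IL10/2-Trikine respectively, with adjusted p between 0.649 and 0.928. In Cycling_T they were -0.08 ± 0.30 and 0.40 ± 0.31, and in act_CD4T -0.77 ± 0.44 and 0.18 ± 0.51, none past the threshold. The naive_CD8T and naive_CD4T clusters were not tested alone. Over the cells of naive_CD8T, Ikzf2 was at 412 CPM (294 to 561) after PBS and 92.6 (69.2 to 121.5) after mono-IL10. In naive_CD4T it was at 474 (327 to 666) and 145 CPM (83 to 236). IL10/2-Trikine had 2 and 1 cells there. Over all gdT/NKT cells, those without a mouse included, Ikzf2 was at 1528, 999 and 903 CPM in PBS, mono-IL10 and IL10/2-Trikine.

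The make-up of the cells moved with these values. Cells of gdT/NKT, the cluster that followed the Treg clusters in Ikzf2 per mouse, were 15.9% ± 3.92 of all cells after PBS. They were 9.48% ± 2.78 after mono-IL10 and 7.08% ± 2.01 after IL10/2-Trikine (SD, n = 5 mice each). The Treg clusters made up 16.0% ± 4.59, 9.32% ± 3.38 and 7.92% ± 6.47. If each cluster had 1 Ikzf2 level in all mice, the make-up of UMIs alone would give 798 ± 141 CPM for PBS, 569 ± 58.8 for mono-IL10 and 569 ± 112 for IL10/2-Trikine (SD, n = 5 each). The PBS mean of 896 CPM lay above this value and the mono-IL10 mean of 510 below it, and these gaps were not tested. The part of the make-up in the Ikzf2 calls was not tested either.

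Foxp3 over all T and NK cells was lower on average in the treated groups but did not pass the test. It was at 67.0 ± 25.5 CPM after PBS, 45.4 ± 21.9 after mono-IL10 and 31.8 ± 12.0 after IL10/2-Trikine (SD, n = 5 each), and the groups overlapped. The make-up alone would give 76.9, 38.0 and 38.5 CPM. The log2 fold change of IL10/2-Trikine against PBS was -1.08 ± 0.40 (adjusted p 0.0914), and that of mono-IL10 against PBS was -0.55 ± 0.31 (adjusted p 0.445). IL10/2-Trikine against mono-IL10 gave -0.53 ± 0.38 (adjusted p 0.440), and between -0.873 without IL10/2-Trikine replicate 5 and -0.181 without mono-IL10 replicate 2. Without the filter on low counts the value against PBS for IL10/2-Trikine had an adjusted p of 0.0178, and without PBS replicate 2 it had one of 0.0287. Lrrc32 and Ikzf4 did not pass the filter. Lrrc32 was at 11.0 ± 9.29, 9.61 ± 4.38 and 3.05 ± 3.05 CPM, and Ikzf4 at 24.8 ± 21.8, 15.6 ± 3.91 and 5.92 ± 3.91 CPM (SD, n = 5 each). For Ikzf4 the IL10/2-Trikine mice, at 0 to 10.35 CPM, lay narrowly below the mono-IL10 mice at 10.89 to 21.1. This rested on 0 to 4 UMIs per IL10/2-Trikine mouse. The log2 fold change was -1.30 ± 0.54 in the unfiltered edgeR fit (adjusted p 0.233). After thinning, the shares of cells with an Ikzf4 UMI overlapped, at 0 to 2.24% and 0 to 4.26%. The number of other genes that separated these mice likewise was not counted.

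The share of T and NK cells with a Foxp3 UMI was lower in IL10/2-Trikine than in PBS, a call that was lost once NK cells were left out of the denominator. The share was 8.33%, 7.81%, 14.1%, 10.7% and 7.32% in the PBS mice. The mono-IL10 mice had 7.39%, 12.2%, 8.57%, 5.12% and 4.26%, and the IL10/2-Trikine mice 7.46%, 2.24%, 4.35%, 4.17% and 3.81%. Thus 4 of 5 IL10/2-Trikine mice were below each PBS mouse, and replicate 1 was not. The means were 9.65% ± 2.80, 7.50% ± 3.13 and 4.41% ± 1.90 (SD, n = 5 each). IL10/2-Trikine lay 5.25 points under PBS (difference -5.25, exact two-sided permutation p 0.0159, adjusted over 3 comparisons 0.0476). It differed from mono-IL10 by -3.10 points (exact permutation p 0.0794, adjusted 0.119), and mono-IL10 differed from PBS by -2.15 points (exact permutation p 0.302, adjusted 0.302). The smallest p that 5 against 5 mice allow is 0.00794.

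**Figure D4:**
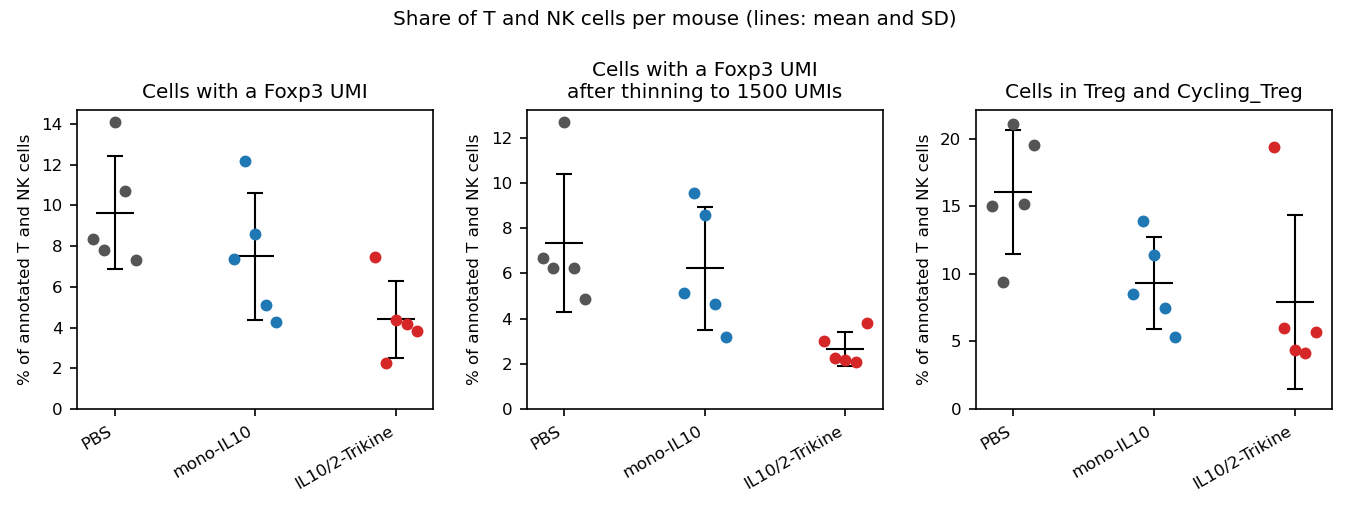
Percent of the annotated T and NK cells of each mouse (vertical axes) with a Foxp3 UMI, with one after thinning to 1500 UMIs per cell, and in the Treg and Cycling_Treg clusters, with the mean and SD as lines. After thinning, by a single random draw, the 5 IL10/2-Trikine mice lie at 2.08% to 3.81%, below the PBS mice at 4.88% to 12.7%. In the Treg clusters, 1 IL10/2-Trikine mouse has 19.4% of its cells.

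From PBS to IL10/2-Trikine the NK cluster went from 27.8% ± 7.74 to 46.6% ± 8.58 of the cells and Cycling_NK from 1.05% ± 1.45 to 8.79% ± 5.31 (SD, n = 5 each), and neither held a Foxp3 UMI. Without these 2 clusters, an alternative added after the data had been seen, the share was 13.6% ± 3.81 after PBS, 10.8% ± 4.66 after mono-IL10 and 9.88% ± 3.105 after IL10/2-Trikine (SD, n = 5 each). IL10/2-Trikine then differed from PBS by -3.73 points (exact permutation p 0.151, adjusted 0.452), or by -4.19 points with every cell thinned (exact permutation p 0.0476, adjusted 0.143). From mono-IL10 it differed by -0.89 points (exact permutation p 0.722, adjusted 0.722), or by -2.73 points with every cell thinned (exact permutation p 0.1905, adjusted 0.286). In the cells that remain, a lower share of Foxp3-positive cells was thus not shown.

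The call also depended on the count rule and on the number of mice. With every cell thinned to 1500 UMIs, which left out no cell, IL10/2-Trikine differed from PBS by -4.69 points (exact permutation p 0.00794, adjusted 0.0238), and the gap to mono-IL10 was -3.56 points (adjusted 0.0238, exact permutation test). When at least 2 UMIs were asked for, the difference from PBS was -3.38 points (adjusted 0.119), and it missed the threshold also without the Cycling_T cluster or among cells with at least 2000 UMIs. Leaving out 1 mouse raised the adjusted p to 0.0952 for 8 of the 10 mice, all but IL10/2-Trikine replicate 1 and PBS replicate 5, while the difference stayed between -6.01 and -4.14 points with 4 mice against 5. In IL10/2-Trikine replicate 1 the Treg clusters held 13 of 67 cells, 19.4%, yet 4 of the 13 had a Foxp3 UMI and none had one of Lrrc32 or Ikzf4.

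Of the other genes of the Treg program, 4 lists were followed. In the Treg clusters 0 of 15 tested surface and effector genes, 0 of 6 transcription factors and 0 of 3 genes of latent TGF-beta handling were called in any of the 3 comparisons, and neither of the 2 genes known to be repressed by Foxp3 passed the filter. Over all 899 genes 0.334% were called in IL10/2-Trikine against PBS and 0% in the other comparisons, so these counts are no result about the lists. There Il2ra differed by 0.43 and 0.06 on the log2 scale in IL10/2-Trikine and mono-IL10 against PBS (adjusted p 0.621 and 0.963), and Ctla4 by 0.02 and 0.15 (0.994 and 0.909). Itgb8, an integrin chain that activates TGF-beta held by GARP, differed by -1.01 and 0.16 (adjusted p 0.582 and 0.924), and Tgfb1 by -0.30 and -0.12 (0.906 and 0.962). Ikzf3 (Aiolos) differed by 1.05 and 0.12 (adjusted p 0.370 and 0.949).

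Over all T and NK cells, the surface and effector list had 4 of 16 tested genes lower and 0 higher in IL10/2-Trikine against PBS, with a median log2 fold change of -0.47 against -0.01 over all genes. Over all 4595 genes 9.42% were called, 220 lower and 213 higher. They were Tnfrsf18 (GITR), which fell by 1.02, Tnfrsf4, which fell by 1.42, Icos, which fell by 0.84, and Nt5e (CD73), which fell by 0.58. Of 15 transcription factors 3 were lower, namely Rora (-1.19), Tcf7 (-0.88) and Bach2 (-0.57), and their list median was -0.13. Against mono-IL10, where 8.86% of all genes were called, Tnfrsf4 (-1.05), Tigit (-0.84), Tnfrsf18 (-0.58) and Rora (-0.65) were lower, as was Pde3b (-0.70), a gene that Foxp3 represses. Cbfb rose by 0.485 on the log2 scale. In mono-IL10 against PBS, with 1.11% of all genes called, 1 gene of the lists was called, Bach2, which fell by 0.58. The Ikaros relatives Ikzf1 and Ikzf3 were not called in any comparison (log2 fold changes between -0.17 and 0.27), nor were Il2ra, Ctla4, Tgfb1 and Itgb8. The list of latent TGF-beta handling had 0 of 4 tested genes called in each comparison. In the other annotated cells 3 of 12 surface and effector genes and 4 of 14 transcription factors were lower in IL10/2-Trikine against PBS, and 1 transcription factor, Cbfb, was higher, where 10.1% of all genes were called. Thus Tnfrsf4, Tnfrsf18, Icos, Rora, Tcf7 and Bach2 were lower outside the Treg clusters too, as were Foxo1 and Pde3b. The make-up of the cells moved with these genes. From PBS to IL10/2-Trikine, NK went from 27.8% ± 7.74 to 46.6% ± 8.58 of the cells, Cycling_T from 12.7% ± 3.47 to 23.5% ± 3.32 and naive_CD8T from 9% ± 4.001 to 0.448% ± 0.667 (SD, n = 5 mice each). The naive_CD4T cluster went from 5.28% ± 3.44 to 0 and act_CD4T from 8.39% ± 4.46 to 5.47% ± 2.09, and the part of these shares in the calls was not tested. Against mono-IL10, with 9.28% of all genes called, 6 of the 12 surface and effector genes were lower there, namely Itgae (-2.08), Tnfrsf4 (-1.84), Icos (-1.11), Tigit (-0.90), Tnfrsf18 (-0.65) and Ctla4 (-0.47), together with Batf (-1.11), Rora and Pde3b, and Cbfb rose. In mono-IL10 against PBS, with 1.29% of all genes called, Ctla4 rose by 0.62 and Bach2 fell by 0.73 in those cells. No gene of latent TGF-beta handling was called in them (0 of 3 tested).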

How the data were processed

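For each treatment the authors deposited 1 matrix of raw UMI counts, made with Cell Ranger on GRCm39. Per the labels and the study's methods, the authors worked in Seurat 5.1.0 and DESeq2 1.46.0 and dropped cells under 1000 genes or over 10% mitochondrial reads. Clusters, mice and UMI totals came from the authors' annotated table, which lists no cell called a doublet by hashtag, and no other doublet call was made. UMI totals in the table and matrices were equal in 94.9% to 97.9% of cells, with a largest difference of 6. A further 7858 cells in that table belong to a group that was not analysed here.

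Counts were summed per mouse and fitted in edgeR 4.0.16 (R 4.3.3) with TMM, filterByExpr and the quasi-likelihood test, all mice in 1 fit, and Benjamini-Hochberg adjustment over all genes tested, with 0.05 as the threshold. A mouse entered the Treg fit with at least 3 cells. SE is the log2 fold change divided by the root of F. DESeq2 1.42.0 was an alternative. The fit was also run on simulated counts with the same spread for every gene, which the sparse Treg sums need not share. Its recovery is not reported here, so that run bears on no result. Shares were compared by exact permutation tests (scipy 1.17.1). Intervals are exact Poisson or Clopper-Pearson, and the limit of a count of 0 is 3 counts. Named genes were the 4 members, their 5 most similar genes each, and list genes past the threshold, up to 10 per comparison, with Il2ra, Ctla4, Ikzf1, Ikzf3, Tgfb1 and Itgb8 always. The members, lists and tests were chosen with earlier results of these data known.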

Additional observations from a re-analysis of the deposited data

Results flagged for a closer look

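Among 37 groups of mice examined for a mouse far from the others (Dixon's ratio at the 95% level), 6 had one. Chance alone passes this level in about 5% of groups of normally distributed values, a rate that does not hold for sparse counts. With the other 4 mice at 0, any UMI gives a ratio of 1, as for both Lrrc32 groups below and Foxp3 in IL10/2-Trikine. In the annotated cells outside the Treg clusters, Foxp3 was at 35.9 CPM in PBS replicate 3, 21.8 CPM in mono-IL10 replicate 2 and 5.67 CPM in IL10/2-Trikine replicate 1. Lrrc32 was at 5.13 CPM in PBS replicate 3 and 3.97 CPM in mono-IL10 replicate 2 there, with the other 4 mice of each group at 0. These values come from the few positive Cycling_T and act_CD4T cells, so that in PBS replicate 3 and mono-IL10 replicate 2 the cell with Lrrc32 was also one with Foxp3. The share of cells in the Treg clusters was 19.4% in IL10/2-Trikine replicate 1, against 4.17% to 5.97% in the other 4 mice.

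Most Foxp3 transcripts lay in barcodes that no comparison used. Outside the annotated cells 3738 Foxp3 UMIs were counted in 2308 barcodes, so the annotated cells held 6.71% of all Foxp3 UMIs (5.81% for PBS, 11.3% for mono-IL10, 3.30% for IL10/2-Trikine). Of these barcodes 65.8% carried at least 3 UMIs of T cell markers, 83.7% carried Ikzf2 and 72.5% Il2ra, while 77.5% carried at least 10 UMIs of macrophage markers and 7.84% were under 1000 genes. Foxp3 was found in 12.5% of unannotated barcodes with at least 3 T cell marker UMIs that met the gene and mitochondrial limits, against 0.309% of 40802 unannotated barcodes with epithelial markers. By treatment, these T cell-marked barcodes had Foxp3 at 18.9 CPM after PBS, 14.0 after mono-IL10 and 22.6 after IL10/2-Trikine, and Ikzf2 at 208, 169 and 244 CPM, at medians of 10879, 12240 and 6034 UMIs. The highest level was thus that of IL10/2-Trikine, unlike in the annotated cells, whereas the share of barcodes with Foxp3 was 14.95%, 10.3% and 12.0%. These are single libraries with no test, and what the barcodes are was not tested.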

How the results depend on the processing

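No paired analysis was made, because hashtags 1 to 5 mark different animals in each group and the labels tie no mice together. The calls of Ikzf2 over all T and NK cells held under RLE size factors, DESeq2, no filter, thinning of each mouse's sum to 1 total of UMIs (124258 over all T and NK cells, 119067 in the other cells, 14079 in the Treg clusters, with cells per mouse left as they were), removal of Cycling_T and each mouse left out (adjusted p at most 0.00706). Over all T and NK cells 2 members passed in IL10/2-Trikine against PBS without the filter, and 1 to 2 with a mouse left out. Without the filter 490 genes of any kind were called there. The share of all tested genes called is not given for these and the following fits. Their counts of members are thus no result about the members. In the other annotated cells 0 to 1 members passed in IL10/2-Trikine against PBS with a mouse left out. There 0 passed against PBS in NK, gdT/NKT, Cycling_T or act_CD4T alone, a split chosen after seeing the data, in which the Ikzf2 log2 fold change of IL10/2-Trikine turned to 0.40 in Cycling_T and 0.18 in act_CD4T against PBS and to -0.009 in NK against mono-IL10. The difference in Foxp3-positive share from PBS was -3.38 points with at least 2 UMIs, -4.93 without Cycling_T, -4.33 among cells with at least 2000 UMIs, and, in an alternative added after seeing the data, -3.73 without the NK and Cycling_NK clusters (-4.19 with thinning too), none past the threshold, and -6.01 to -4.14 with a mouse left out. From mono-IL10 it was -3.56 points, past the threshold, after thinning. Without the NK and Cycling_NK clusters it was -0.89 points, or -2.73 with thinning too (exact permutation, adjusted 0.722 and 0.286). With a mouse left out it was -3.91 to -1.93, past the threshold only without IL10/2-Trikine replicate 1 (-3.86, exact permutation, adjusted 0.0476). The causes were not tested. In Treg cells alone the levels moved to 442 (PBS) and 730.5 (mono-IL10) CPM for Foxp3, 2763 (PBS) for Ikzf2, and 108 (PBS) and 191.5 (mono-IL10) for Lrrc32. Uncalled values that turned direction in the Treg clusters were Foxp3 in IL10/2-Trikine against PBS (0.18 with mice of 1 cell or more, -0.995 to 0.33 with a mouse left out), and Ikzf2 in the same comparison (-0.59 to 0.20 with a mouse left out), in IL10/2-Trikine against mono-IL10 (-0.62 to 0.18) and in mono-IL10 against PBS (-0.081 in Treg cells alone, -0.046 with thinned sums, -0.077 to 0.137 with a mouse left out). Genes called in mono-IL10 against PBS rose from 51 to 156 over all T and NK cells and from 57 to 183 in the other cells without the filter (89 with DESeq2, 36 without Cycling_T in the latter). With thinned sums IL10/2-Trikine gave 227 instead of 433 against PBS and 191 instead of 407 against mono-IL10 over all T and NK cells, 265 instead of 444 and 181 instead of 409 in the others, and mono-IL10 against PBS 29 and 28. In single clusters the 3 comparisons gave 0 to 86. In the Treg clusters 0 genes called in IL10/2-Trikine against mono-IL10 became 19 in Treg cells alone, 8 with DESeq2, 7 without the filter and 3 with thinned sums, 3 against PBS became 6 without the filter and 0 with mice of 1 cell, and 0 in mono-IL10 against PBS became 5 without the filter. Depth limited Lrrc32 and Ikzf4, with 55 and 99 UMIs in the annotated cells.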

Other observations

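Outside the annotated cells Lrrc32 had 6462 UMIs, against 55 within them. Of these 1551 were in barcodes with endothelial markers, a set added after the data had been seen, and 1277 in the 11484 barcodes with at least 3 T cell marker UMIs that met the gene and mitochondrial limits, 7.84% of which carried it. In 1157 unannotated barcodes with at least 10 UMIs of Pecam1, Cdh5 and Kdr and no T cell marker, it was at 94.8 CPM and was counted in 52.8% of barcodes (95% exact binomial interval 49.9 to 55.7), with 0.173% for Foxp3 (0.0209 to 0.623). In barcodes with macrophage markers Lrrc32 was counted in 2.49% of 31677 and Ikzf2 in 10.8%, and in those with epithelial markers in 0.652% and 20.3% of 40802.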
